A study of Mus musculus with 6 samples.

Results

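The genes described here are the ion and metal transporters of 11 solute carrier families (SLC4, SLC8, SLC9, SLC12, SLC20, SLC24, SLC26, SLC30, SLC34, SLC39 and SLC41) together with the carbonic anhydrases. Members were the protein coding genes whose symbol belonged to one of these families, a rule that reads symbols and gene type and no measured value. There were 93 of them among 56748 genes in the count table. RNA-Seq counts came from endothelial cells (ECs) sorted from the spinal cord of mice at P16, in 3 control and 3 TDP-43iΔEC libraries. Neither the paper nor the sample titles say whether a library held cells of 1 mouse or of a pool. Each library is called 1 mouse here. Control mice carried the floxed allele of Tardbp (Tardbpflox), the gene of the RNA-binding protein TDP-43, in which exon 3 is flanked by loxP sites, and no Cre. TDP-43iΔEC mice carried the same floxed allele with Cdh5(PAC)-CreERT2, a tamoxifen-inducible Cre under the control of the EC promoter of Cdh5. Mice of both groups received tamoxifen, at 1 mg/mL, from P5 to P7, and both sexes on a C57BL/6 background were used. Live cells were sorted as CD31+ CD45- TER-119-, so the gate took cells by an EC surface protein and was set against leukocytes and erythroid cells. The comparison asked whether deletion of TDP-43 in ECs changed the mRNA levels of these genes.

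The barrier ECs of the central nervous system move ions, phosphate and trace metals between blood and tissue through carriers in their membranes. Carbonic anhydrases interconvert carbon dioxide and bicarbonate, and SLC4 and SLC26 carriers exchange or cotransport the bicarbonate and other anions. SLC9 carriers exchange sodium for protons, SLC8 and SLC24 carriers exchange sodium for calcium, and SLC12 carriers move chloride with sodium or potassium. SLC20 and SLC34 carriers take up phosphate with sodium, and SLC41 carriers transport magnesium. SLC39 (ZIP) carriers bring zinc, manganese and iron into the cytosol, and SLC30 (ZnT) carriers move zinc, or in the case of Slc30a10 manganese, out of it. In the ECs of brain and spinal cord, Car4 sits on the capillary surface and has long served as a marker of capillary endothelium.

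Libraries held 25704871 to 47270654 counts and 12972 to 16557 genes with at least 1 count, and levels are given as CPM, a gene's share of the counts of its library after scaling by the trimmed mean of M values (TMM). At these depths 3 counts, taken as the floor of detection, corresponded to 0.0615 to 0.115 CPM, which covers counting error only, since PCR copies were not told apart from molecules. Control mouse 2 and TDP-43iΔEC mouse 1 stood apart from the other libraries in a multidimensional scaling. It used, for each pair of libraries, the tested genes that differed most between them. The deleted gene Tardbp measured 55.2, 61.8 and 58.4 CPM in control mice and 26.6, 16.1 and 11.7 CPM in TDP-43iΔEC mice. The groups did not overlap for Tardbp (log2 fold change −1.62 ± 0.41 SE, limma adjusted p = 0.287), and an exact permutation test, two-sided, gave p = 0.1, the smallest that 3 mice against 3 can give. The summed level of 6 EC markers was 9867 to 13220 CPM in control mice and 8994 to 10480 CPM in TDP-43iΔEC mice. All 6 EC markers were measured at 151.3 CPM or more in every library, 5 of them had negative log2 fold changes and none passed the limma threshold. Flt1 measured 1771 to 2030 CPM in control mice and 1103 to 1217 CPM in TDP-43iΔEC mice (log2 fold change −0.69 ± 0.11 SE, limma adjusted p = 0.0635), and the groups did not overlap for Kdr either (limma adjusted p = 0.575). The summed level of 6 microglia and macrophage markers was 0 to 3.86 CPM in control mice and 0.226 to 8.12 CPM in TDP-43iΔEC mice, and Adgre1 was the one of the 6 at 0 in all libraries.

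Detection of the members was uneven. Of the 93 genes, 27 had no count in any library, 47 passed the filter on low counts and were tested among 13107 genes, and 30 had a count in all 6 libraries. Members with a count numbered 56, 38 and 51 in control mice 1 to 3 and 47, 50 and 45 in TDP-43iΔEC mice 1 to 3. Control mouse 2 had the fewest, and it alone among the controls had 0 counts for 12 of the 47 tested members. A member with 0 counts in 1 library and at least 100 in another of the same group occurred 16 times among the 47 (34%), against 17.8% of all tested genes. For these members the spread within a group was of the size of the level itself, and none of them passed the test.

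Among the 47 tested members, Car4 was the only one that passed the limma threshold of an adjusted p under 0.05, and it was lower in TDP-43iΔEC mice. This was 2.13% of the tested members, and 0.107% of all tested genes passed in that direction. No member passed in the higher direction, in which 0.0305% of all tested genes did. At an unadjusted limma p under 0.05, 4 members were lower (8.51%, with 5% of all tested genes) and 2 were higher (4.26%, with 4.26% of all tested genes). The share of higher members was thus that of the background. The groups did not overlap for 5 members that were lower (10.6%, with 7.93% of all genes) and for 2 that were higher (4.26%, with 7.38% of all genes). The log2 fold change was negative for 26 and positive for 21 of the 47, with a median of −0.28, and the median of all tested genes was −0.02. Such signs, here and by family, can rest on 1 library at 0. Slc20a2, at 0 in control mouse 2, was fitted at 1.92 with means of 6.2 CPM in control and 3.9 CPM in TDP-43iΔEC mice. Slc9a2, at 0 in TDP-43iΔEC mouse 3, was fitted at −0.16 with means of 1.7 and 4.4 CPM. Members passed the filter through a group in which they were measured, so the 47 do not stand for all 93. Slc41a2, 1 of the 2 higher members, passed it through the TDP-43iΔEC libraries alone. DESeq2, run as an alternative on the same counts, called 2 members lower, Car4 and Slc39a10, where 1.09% of all genes passed, and 2 higher, Slc20a1 and Slc41a2, where 0.816% of all genes passed.

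**Figure D1:**
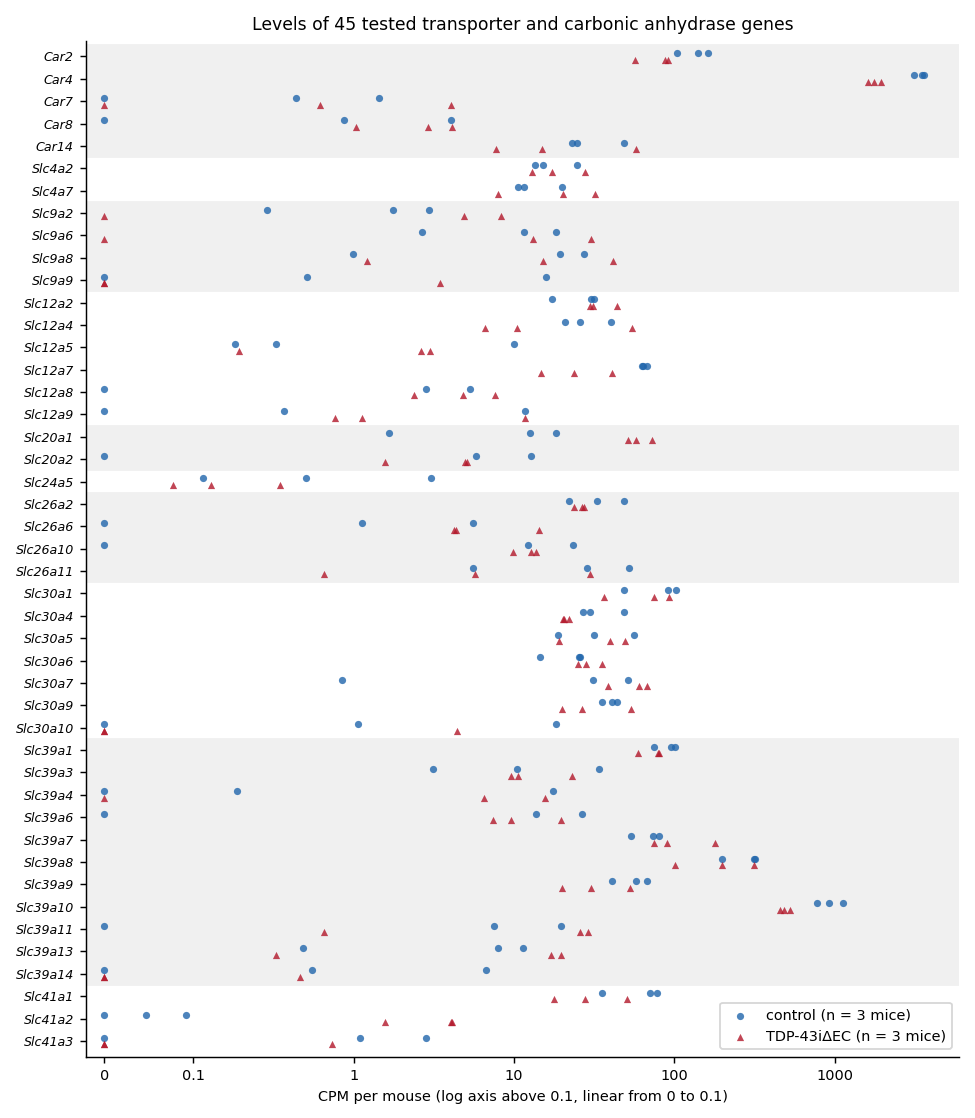
Level of 45 of the 47 tested members in each mouse, in CPM on an axis that is logarithmic except near 0, grouped by gene family with alternating shading. Circles are the 3 control mice and triangles the 3 TDP-43iΔEC mice. Car4 and Slc39a10 lie to the right of every other member, with separate groups, and many members measured below 10 CPM have 1 library at 0.

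Of the 14 carbonic anhydrase genes, 5 were tested, 3 had negative and 2 positive log2 fold changes, and 1 passed the threshold. Car4 encodes the membrane-anchored carbonic anhydrase IV on the capillary surface. It lies at chr11:84848020-84856879 on the plus strand (GRCm39), and its exons overlap those of no other gene. The 250 bases before its RefSeq transcription start (chr11:84957504-84957753 in GRCm38.p6, plus strand) are shown because Car4 is the member that passed the test. Capitals would mark the core letters bound by TCF/LEF factors of the Wnt/β-catenin pathway (CTTTGA or CTTTGT) or the E-box CACGTG, searched on both strands, and the window held no match to either:
Car4: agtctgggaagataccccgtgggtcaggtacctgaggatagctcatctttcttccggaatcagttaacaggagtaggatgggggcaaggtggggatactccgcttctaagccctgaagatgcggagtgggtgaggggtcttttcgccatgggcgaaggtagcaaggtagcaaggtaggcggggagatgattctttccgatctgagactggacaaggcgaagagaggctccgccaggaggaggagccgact

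Car4 measured 3515, 3623 and 3108 CPM in control mice and 1751, 1948 and 1611 CPM in TDP-43iΔEC mice. Every TDP-43iΔEC mouse was below every control mouse, and the spread within each group was small beside the gap. The means were 3416 ± 272 CPM (SD, n = 3) and 1770 ± 169 CPM (SD, n = 3). Car4 fell to a ratio of 0.52 (95% confidence interval 0.438 to 0.616), a log2 fold change of −0.94 ± 0.11 SE with a limma adjusted p of 0.0224. It ranked 7 of 13107 genes by p. The part of the lower EC markers in this difference was not tested. Per kb of exonic length, the scale on which genes can be compared, it stood at 997.8 ± 79.3 CPM per kb in control mice, rank 20 of the 11340 tested protein coding genes with an exonic length, and at 517.1 ± 49.4 CPM per kb in TDP-43iΔEC mice, rank 38. Car4 therefore remained among the most abundant mRNAs of both groups. When 1 mouse was left out at a time the log2 fold change stayed between −1.01 and −0.88, and the call held only without control mouse 3 (limma adjusted p = 0.0102), with adjusted p values of 0.061 without control mouse 1, 0.0752 without control mouse 2, and 0.193, 0.0922 and 0.122 without TDP-43iΔEC mouse 1, 2 and 3. The call was also lost with edgeR's quasi-likelihood test (adjusted p = 0.22) and with scaling by library size only (limma adjusted p = 0.121). From bulk RNA it cannot be told apart whether fewer of the sorted cells carried Car4 mRNA or each cell carried less of it.

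Car2, the cytosolic carbonic anhydrase II, is abundant in oligodendrocytes and in cells of the red blood cell lineage. It measured 140, 104 and 163 CPM in control mice and 87.1, 56.7 and 91.7 CPM in TDP-43iΔEC mice, at chr3:14951317-14967568 on the plus strand (GRCm39). The groups did not overlap, with a gap between the lowest control mouse and the highest TDP-43iΔEC mouse that was smaller than the spread within either group. The log2 fold change of −0.79 ± 0.28 SE had an unadjusted limma p of 0.0221 and did not pass after adjustment (limma adjusted p = 0.471). Marker levels of other cells differed between the same libraries. The summed level of 5 erythroid markers was 6924 to 10560 CPM in control mice and 2029 to 2878 CPM in TDP-43iΔEC mice, with 4 of the 5 past the limma threshold and lower, in cells sorted against the erythroid surface marker TER-119. Of other members known from red blood cells, Slc4a1, the anion exchanger of the erythrocyte membrane, had 2, 0, 0, 0, 0 and 32 counts across the 6 libraries and Car1 had none. The summed level of 6 oligodendrocyte markers was 304.5, 441.7 and 607.6 CPM in control mice and 489.3, 53.7 and 15.5 CPM in TDP-43iΔEC mice. The summed level of 6 astrocyte markers was 237.7 to 260 CPM in control mice and 128 to 176.5 CPM in TDP-43iΔEC mice. Most of this sum was Gja1, a gap junction gene, at 208.3 to 241.4 CPM and 102.4 to 170 CPM. The sums of the other 5 markers overlapped between the groups, at 16.7 to 29.4 CPM and 0.5 to 25.6 CPM. Among these 5, Slc1a2 was lower without overlap, at 4.49, 6.78 and 11.03 CPM against 0, 1.92 and 0.5 CPM (limma adjusted p = 0.495). Of the 4 astrocyte markers tested, 3 had negative and 1 a positive log2 fold change, and none passed the limma threshold. The part of these cell types in the level of Car2 was not tested.

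**Figure D2:**
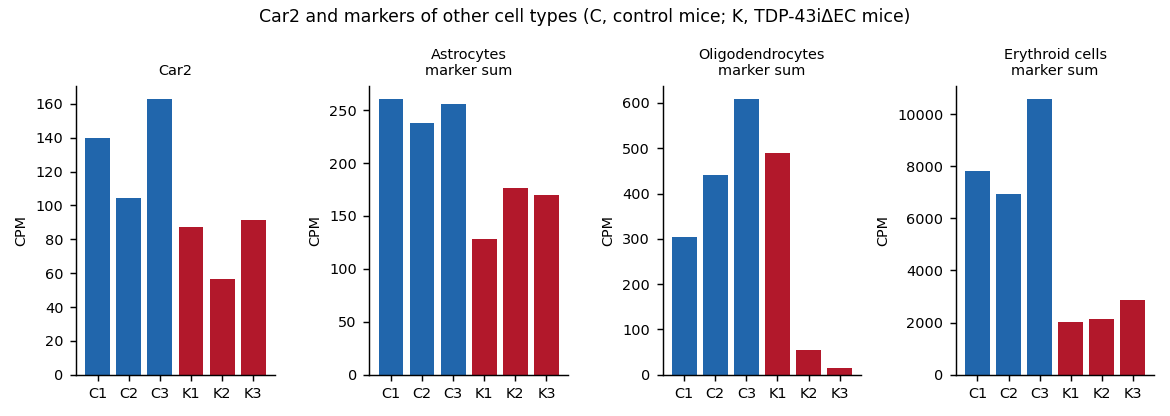
Level of Car2 and summed levels of 6 astrocyte, 6 oligodendrocyte and 5 erythroid marker genes, in CPM, in each mouse (blue bars C1 to C3, control mice; red bars K1 to K3, TDP-43iΔEC mice). The erythroid sum, the astrocyte sum, which is mostly Gja1, and Car2 are lower in all 3 TDP-43iΔEC mice than in the control mice, and the oligodendrocyte sums of the groups overlap.

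The remaining carbonic anhydrases were low or scattered. Car14, a membrane-bound enzyme with an extracellular catalytic domain, measured 48.5, 23.1 and 24.8 CPM in control mice and 15, 57.3 and 7.77 CPM in TDP-43iΔEC mice (limma adjusted p = 0.753), and 14.9% of its exonic bases are shared with Aph1a, from which reads counted without strand could not be separated. Car7 and Car8 stayed at or below 4.12 CPM in every mouse. Car9, an enzyme induced by hypoxia, had 379 counts in TDP-43iΔEC mouse 1 and none in the other 5 libraries, and Car11 had 211 counts in the same mouse and 47 in TDP-43iΔEC mouse 3. Both were named after their values were seen, and neither passed the filter. Car4 alone made up 93.7% to 96.6% of the summed CPM of the family in each mouse, so the family sum of 3709, 3751 and 3297 CPM in control mice and 1869, 2071 and 1714 CPM in TDP-43iΔEC mice largely repeated Car4. Without Car4 the sum was 170 ± 36.9 CPM in control mice and 115 ± 10.4 CPM in TDP-43iΔEC mice (SD, n = 3), most of it Car2.

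Of the 14 SLC39 importers, 11 were tested, 6 with negative and 5 with positive log2 fold changes. Slc39a10 encodes ZIP10, a zinc importer of the plasma membrane, and was the second most abundant member per kb in control mice and, after Slc39a7, the third in TDP-43iΔEC mice. It measured 921.8, 1122 and 776.1 CPM in control mice and 523.8, 482.4 and 453.9 CPM in TDP-43iΔEC mice. All 3 TDP-43iΔEC mice were below all control mice and lay closer together than the controls did. The means were 940.1 ± 174 and 486.7 ± 35.2 CPM (SD, n = 3), and the ratio was 0.529 (95% confidence interval 0.404 to 0.692). The log2 fold change of −0.92 ± 0.17 SE was close to that of Car4, and with an unadjusted p of 0.000477 it did not pass the limma threshold (limma adjusted p = 0.14), whereas DESeq2 gave an adjusted p of 0.00036. Over the limma fits that left out 1 mouse the adjusted p ranged from 0.0682 to 0.468. Per kb it stood at 77.2 ± 14.3 CPM in control mice, rank 384, and at 40 ± 2.89 CPM in TDP-43iΔEC mice, rank 756 of the protein coding genes.

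The gene lies at chr1:46845872-46964964 on the minus strand (GRCm39), and 2.61% of its exonic bases overlap Dnah7c on the other strand. Dnah7c had 519 counts in control mouse 2 and 0 to 14 in the other libraries. Because the ratio of Slc39a10 was nearly that of Car4, the 250 bases before its more upstream of 2 RefSeq starts (chr1:46925777-46926026 in GRCm38.p6, minus strand) are shown beside those of Car4. The capitals mark 2 matches to the TCF/LEF core:
Slc39a10: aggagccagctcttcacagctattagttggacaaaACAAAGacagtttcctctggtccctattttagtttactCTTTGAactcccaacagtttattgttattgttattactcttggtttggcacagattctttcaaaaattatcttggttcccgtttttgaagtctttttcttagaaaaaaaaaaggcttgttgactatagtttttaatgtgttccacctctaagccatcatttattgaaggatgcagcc

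Slc39a8, the ZIP8 importer of manganese, zinc and iron, measured 319.8, 197.8 and 313.5 CPM in control mice and 101.2, 313.4 and 197 CPM in TDP-43iΔEC mice. Its groups overlapped across most of their range (log2 fold change −0.64 ± 0.38 SE, limma adjusted p = 0.608). Slc39a14, the related ZIP14 manganese and iron importer, was at 6.7 CPM in control mouse 2 and at or below 0.549 CPM in every other mouse. Slc39a7, a carrier that releases zinc from the endoplasmic reticulum, measured 80.7, 53.3 and 73.2 CPM in control mice and 74.2, 179 and 89.8 CPM in TDP-43iΔEC mice, and 78.3% of its exonic bases are also annotated to Gm20427 on the same strand. Slc39a1, a plasma membrane zinc importer, lay between 59.6 and 101.5 CPM in all 6 mice, and Slc39a9 between 19.8 and 67.2 CPM. Those last 3 were named after their values were seen. The summed SLC39 level was 1551, 1517 and 1390 CPM in control mice and 842.9, 1203 and 885.9 CPM in TDP-43iΔEC mice. Without Slc39a10 it was 545.8 ± 131 and 490.5 ± 207 CPM (SD, n = 3), so the other ZIP genes together differed by less than the spread between mice.

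The SLC30 exporters as a sum were level between the groups. Their summed level was 223.9, 266.2 and 253.1 CPM in control mice and 227.8, 268.7 and 237.1 CPM in TDP-43iΔEC mice, which gives means of 247.8 ± 21.6 and 244.5 ± 21.4 CPM (SD, n = 3). Of 10 genes 7 were tested, and none had an unadjusted limma p under 0.05. Slc30a1, the zinc exporter of the plasma membrane, measured 48.7, 102 and 91.8 CPM in control mice and 74.4, 36.2 and 92.5 CPM in TDP-43iΔEC mice (log2 fold change −0.28 ± 0.42 SE, limma adjusted p = 0.841). Slc30a10, the manganese exporter, was detected at 18.2 CPM in control mouse 3, at 4.42 CPM in TDP-43iΔEC mouse 2 and at or below 1.07 CPM elsewhere. Slc30a4, which loads zinc into intracellular vesicles and was named after its values were seen, measured 29.9, 48.4 and 26.8 CPM in control mice and 20.5, 22.1 and 20.2 CPM in TDP-43iΔEC mice, without overlap of the groups but with a limma adjusted p of 0.61.

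**Figure D3:**
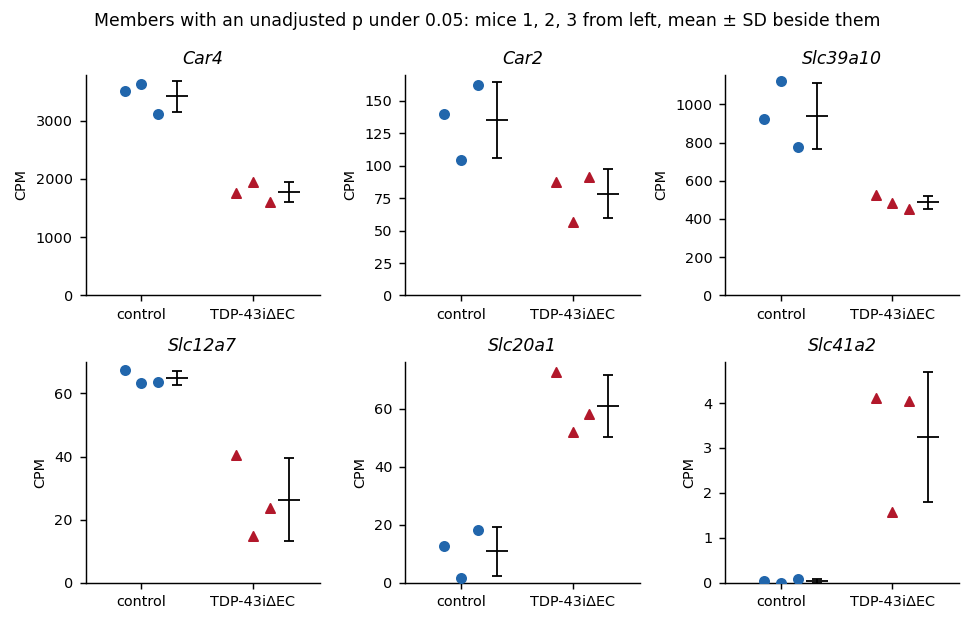
Level in CPM, on linear axes from 0, of the 6 members with an unadjusted limma p under 0.05 in control (circles) and TDP-43iΔEC (triangles) mice, with the mean and SD of 3 mice beside the points. Groups are separate for all 6, and Car4 is the member that passed after adjustment.

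Among the 9 SLC12 cation-chloride cotransporters, 7 were tested. Slc12a7 encodes KCC4, a potassium-chloride exporter that takes part in the regulation of cell volume. It measured 67.3, 63.3 and 63.7 CPM in control mice and 40.6, 14.8 and 23.8 CPM in TDP-43iΔEC mice, at chr13:73881213-73964874 on the plus strand (GRCm39). The control mice were nearly equal, and all TDP-43iΔEC mice lay below them and apart from each other. The ratio was 0.406 (95% confidence interval 0.217 to 0.758) and the log2 fold change −1.30 ± 0.40 SE, with an unadjusted limma p of 0.00982 and an adjusted p of 0.378. Slc12a2, the sodium-potassium-chloride importer NKCC1, measured 31.5, 30.1 and 17.3 CPM in control mice and 31, 30 and 43.6 CPM in TDP-43iΔEC mice (log2 fold change 0.40 ± 0.39 SE, limma adjusted p = 0.751). Slc12a4 (the potassium-chloride exporter KCC1), which had the highest level of the family per kb, measured 20.9, 40 and 25.7 CPM in control mice and 10.5, 54.1 and 6.58 CPM in TDP-43iΔEC mice, with overlapping groups. Slc12a5 (KCC2), a carrier of mature neurons, was at 10.1 CPM in control mouse 2 and at or below 3.01 CPM in the others, in a sort in which 6 neuronal markers summed to 1.92 to 12 CPM. The family sum was 170.3, 197.8 and 138.1 CPM in control mice and 137.4, 136 and 116.9 CPM in TDP-43iΔEC mice. Without Slc12a7 it was 104 ± 30 CPM in control mice and 103.8 ± 15.2 CPM in TDP-43iΔEC mice (SD, n = 3).

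In the SLC20 family of phosphate carriers both genes were tested. Slc20a1 encodes PiT1, a sodium-phosphate cotransporter that is found in most cells. It measured 12.6, 1.66 and 18.2 CPM in control mice and 72.6, 51.8 and 58.1 CPM in TDP-43iΔEC mice. Every TDP-43iΔEC mouse was above every control mouse, and control mouse 2 was far below the other controls. The log2 fold change was 3.04 ± 0.78 SE, a ratio of 8.21 with a 95% confidence interval of 2.42 to 27.9, with an unadjusted limma p of 0.00369 and an adjusted p of 0.295. Without control mouse 2 the log2 fold change was 2.01 (limma adjusted p = 0.321) and without control mouse 3 it was 3.72 (limma adjusted p = 0.5), so its size depended on single control libraries. DESeq2 gave a log2 fold change of 2.54 and an adjusted p of 0.042. Per kb, Slc20a1 stood at 1.75 ± 1.36 CPM in control mice, rank 7498, and at 9.82 ± 1.72 CPM in TDP-43iΔEC mice, rank 2671 of the protein coding genes. Slc20a2 (PiT2), the other carrier of this family, measured 5.82, 0 and 12.9 CPM in control mice and 4.97, 5.06 and 1.58 CPM in TDP-43iΔEC mice, and the sign of its fitted change turned with the test used. The 3 SLC34 phosphate carriers, known from kidney and intestine, had no count in any library.

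Slc20a1 lies at chr2:129040256-129053536 on the plus strand (GRCm39). Exons of antisense genes overlap it, with 21.2% of its exonic bases shared with Gm74587, a gene not in the count table, and up to 350 bp with 9830144P21Rik, for which control mice had 49, 0 and 78 counts and TDP-43iΔEC mice 16, 102 and 13. The libraries were counted without strand, so reads of these genes could not be separated from Slc20a1 in the shared bases. Its promoter is shown because Slc20a1 was the better measured of the 2 members that were higher in every TDP-43iΔEC mouse. The 250 bases before its more upstream of 2 RefSeq starts (chr2:129198523-129198772 in GRCm38.p6, plus strand) held 2 E-boxes, in capitals, and no TCF/LEF core:
Slc20a1: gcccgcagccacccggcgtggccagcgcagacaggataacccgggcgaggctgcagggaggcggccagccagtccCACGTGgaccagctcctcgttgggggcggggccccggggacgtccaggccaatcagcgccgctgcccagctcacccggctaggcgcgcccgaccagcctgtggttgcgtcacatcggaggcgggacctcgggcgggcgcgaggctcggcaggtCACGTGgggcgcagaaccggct

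These letters are common. RefSeq promoters were found for 71 of the 93 members, as 91 windows. A TCF/LEF core lay in 18.7% of the 91 member windows and in 27.6% of all 32851 windows of the same length. An E-box lay in 12.1% of the member windows and in 6.0% of all. The core of the metal response element, which zinc-activated MTF1 binds (TGCACNC or TGCGCNC, both strands), lay in 35.2% and 21.4%, with no match before Car4 or Slc39a10 and 1 before Slc20a1. A match describes the letters alone and no binding was measured.

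SLC41 holds the magnesium carriers. For Slc41a2 the control mice had 2, 0 and 4 counts and the TDP-43iΔEC mice 200, 49 and 105, or 0.0465, 0 and 0.0915 CPM against 4.10, 1.57 and 4.04 CPM. The control libraries were at the level of 3 counts and every TDP-43iΔEC library was above it. The fitted log2 fold change of 6.21 ± 1.96 SE depends on the 0.5 counts that voom adds to each library. It was 5.32 without control mouse 2 and 6.86 without control mouse 3, with limma adjusted p values of 0.521 and 0.582. With all mice it had an unadjusted limma p of 0.0115 and an adjusted p of 0.395, and DESeq2 gave an adjusted p of 0.0392. Slc41a2 passed the filter on low counts through the TDP-43iΔEC libraries alone, the group in which it was high. These p values therefore depend on the filter, and with at least 10 counts required in every library the gene was not tested. Even in TDP-43iΔEC mice its level, 0.605 ± 0.27 CPM per kb, ranked 9797 of 11340 protein coding genes, so Slc41a2 was a rare mRNA in both groups. Slc41a1, a magnesium carrier of the plasma membrane and the family's most abundant gene per kb, measured 78.5, 70.5 and 35.2 CPM in control mice and 17.7, 50.5 and 27.8 CPM in TDP-43iΔEC mice. One TDP-43iΔEC mouse lay within the control range (log2 fold change −1.08 ± 0.50 SE, limma adjusted p = 0.549).

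**Figure D4:**
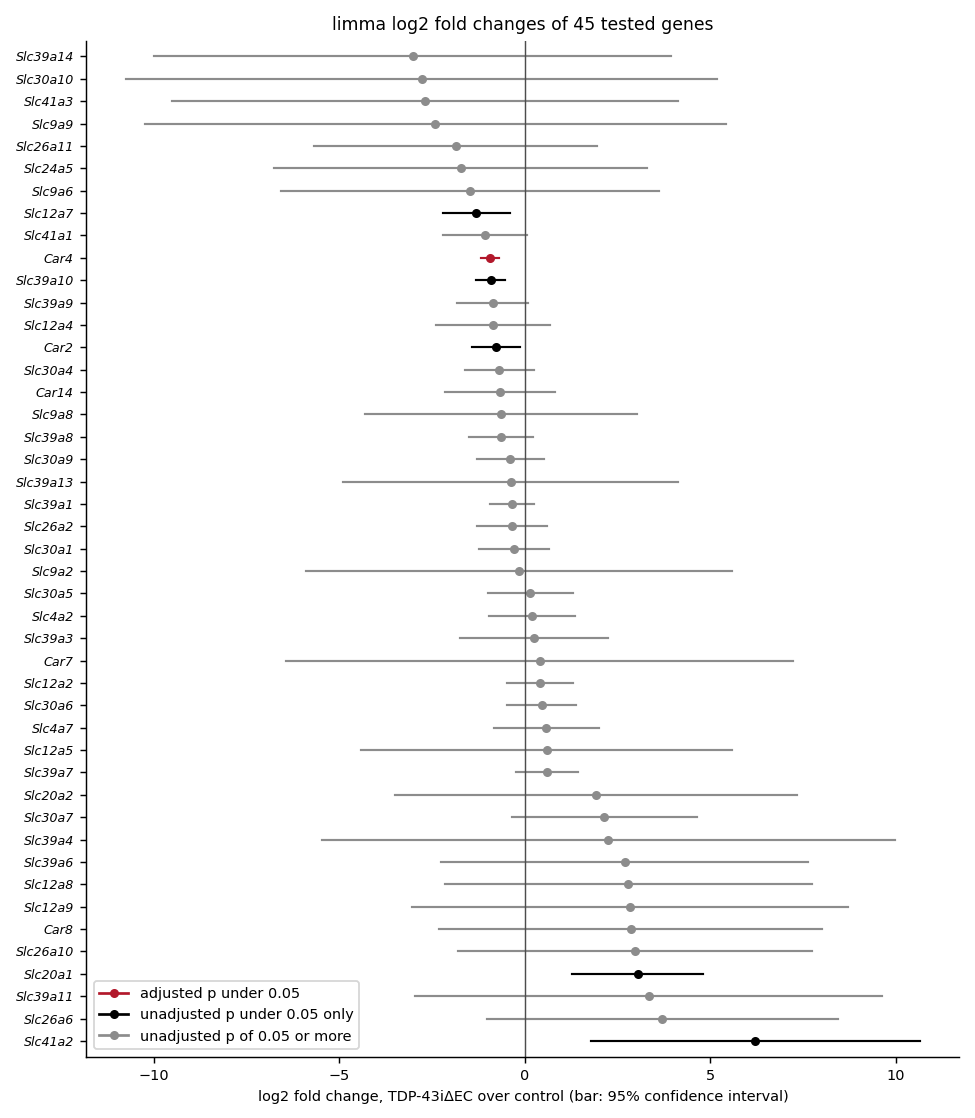
Log2 fold change of 45 of the 47 tested members, TDP-43iΔEC over control, from limma, with bars for the 95% confidence interval. Red marks Car4, which passed after adjustment, black the 5 members with an unadjusted p under 0.05 only, and gray the rest, whose intervals all include 0 and are widest for members with libraries at 0.

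The bicarbonate, proton and calcium carriers were scarce in these cells. Of 10 SLC4 genes, 5 had no count in any library, including Slc4a10, and 2 were tested. Slc4a2, the chloride-bicarbonate exchanger AE2, measured 24.6, 15.2 and 13.6 CPM in control mice and 27.7, 12.9 and 17.2 CPM in TDP-43iΔEC mice (log2 fold change 0.20 ± 0.51 SE, limma adjusted p = 0.923), with 39.3% of its exonic bases shared with Fastk. Slc4a7, the sodium-bicarbonate cotransporter NBCn1, measured 11.5, 10.6 and 19.9 CPM in control mice and 32, 20.3 and 8.01 CPM in TDP-43iΔEC mice. Slc4a4, a sodium-bicarbonate cotransporter prominent in astrocytes, was counted 11, 0 and 157 times in the control libraries and 0, 5 and 0 times in the others.

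All 5 tested SLC9 exchangers had negative log2 fold changes, and none of them passed the test or had an unadjusted p under 0.05. Slc9a2 measured 0.289 to 2.95 CPM in control mice and 0 to 8.26 CPM in TDP-43iΔEC mice, and its fitted sign turned with the tool. The sum of the SLC9 family was 56.8 ± 7.21 CPM in control mice and 52 ± 27.3 CPM in TDP-43iΔEC mice (SD, n = 3), a difference smaller than the spread between mice. No SLC8 calcium exchanger was tested, and Slc8a1, the exchanger NCX1, was counted 1, 0 and 88 times in the control libraries and 1, 107 and 2 times in the others. Among the 5 SLC24 exchangers, Slc24a5 alone was tested, at 0.0770 to 3.05 CPM. Of 11 SLC26 anion carriers 4 were tested, with 2 negative and 2 positive log2 fold changes, and Slc26a11, the highest per kb, measured 28.7, 52.4 and 5.56 CPM in control mice and 5.74, 29.9 and 0.654 CPM in TDP-43iΔEC mice.

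**Figure D5:**
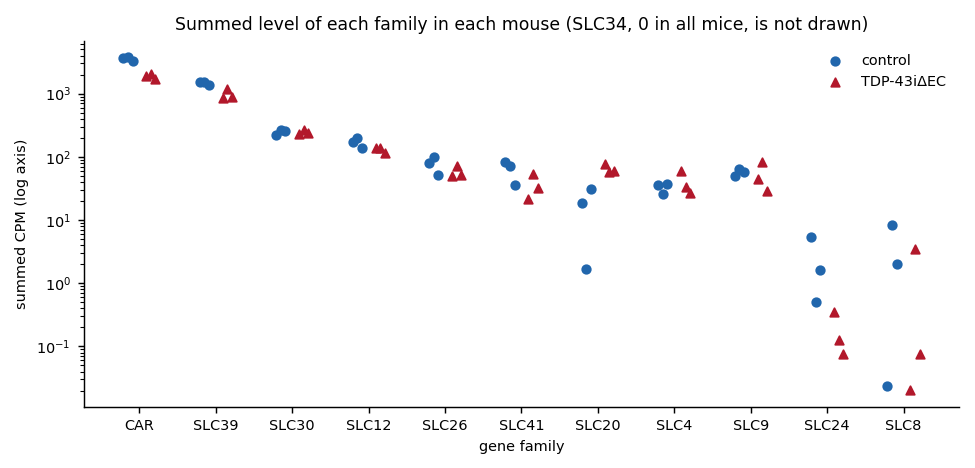
Summed CPM of each family in each mouse on a logarithmic axis (circles, control; triangles, TDP-43iΔEC). CAR is the carbonic anhydrase family, and its sums and those of SLC39, SLC12 and SLC24 are lower in all TDP-43iΔEC mice than in any control mouse, with the groups of SLC12 nearly touching. Those of SLC20 are higher, and the groups overlap in the other families drawn.

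Summed over all 93 members the level was 5925, 6004 and 5295 CPM in control mice and 3331, 3978 and 3153 CPM in TDP-43iΔEC mice. Car4 and Slc39a10 together made up 73.4% to 79.0% of that sum in control mice and 61.1% to 68.3% in TDP-43iΔEC mice. The lower total was carried mainly by these 2 genes.

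Other genes of ion and metal handling were read from 4 lists. Of 13 other metal carriers and zinc-binding genes, 11 were tested and none passed the limma threshold, while 2 had an unadjusted p under 0.05 and were lower, where 5% of all tested genes were. Slc31a1, the copper importer CTR1, measured 774.7, 758.6 and 656.2 CPM in control mice and 420.4, 543.2 and 446.6 CPM in TDP-43iΔEC mice (log2 fold change −0.65 ± 0.15 SE, limma adjusted p = 0.27). Slc40a1, the iron exporter ferroportin, measured 892.6, 751 and 788.8 CPM in control mice and 543.4, 675.5 and 473.6 CPM in TDP-43iΔEC mice (log2 fold change −0.53 ± 0.16 SE, limma adjusted p = 0.361). Neither gene's groups overlapped, which held in the lower direction for 7.93% of all tested genes. The metallothioneins Mt1 and Mt2, which bind zinc and rise with it, had limma adjusted p values of 0.854 and 0.988. Of 11 sodium, potassium and calcium pumps 9 were tested, and none passed the limma threshold. Of the 8 kinases that control cation-chloride cotransport and their cofactors 7 were tested, and of 14 ion channels 10 were tested, with no unadjusted p under 0.05 in either list.

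TDP-43 binds UG-rich RNA, so runs of at least 6 TG units on the transcribed strand of each gene body were counted. Such a run occurred in 76.6% of the 47 tested members, with a median of 4 runs, and in 71.9% of the 11340 tested protein coding genes that GENCODE M39 holds, of 11354 tested, with a median of 2. Gene length was not taken into account. Car4 had 1 run, Car2 had 1, Slc12a7 had 5, Slc39a10 had 16, Slc41a2 had 20 and Slc20a1 had none. Members with lower and with higher levels thus both included genes with many and with few runs.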

How the data were processed

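The authors sorted ECs, prepared SMARTseq2 libraries, which keep no strand and carry no molecular identifiers, aligned reads to GRCm39 with STAR 2.7.8a and GENCODE M30, and deposited estimated counts per gene from RSEM 1.3.0. The deposited estimated counts were unscaled and were rounded to whole numbers before use. The comparison of 3 TDP-43iΔEC with 3 control mice used limma 3.58.1 (voom, empirical Bayes) in R 4.3.3, after TMM scaling and filterByExpr of edgeR 4.0.16, with Benjamini-Hochberg adjustment over all 13107 tested genes and a threshold of 0.05. The script was tested on simulated data. Lengths, positions and overlaps came from GENCODE M39, which matched 98.7% of identifiers; promoters came from RefSeq (GRCm38.p6). Members, lists and named genes were chosen with earlier results of these data known. Named were members with an unadjusted p under 0.05, the highest member per kb of each family, members of known roles in barrier ECs or related cells, and others stated as chosen afterwards. A few genes named by the rule were left out of the text and figures. Alternatives replaced the test (edgeR quasi-likelihood, DESeq2 1.42.0), scaling, filter or weights, added a replicate block, or left out 1 mouse.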

Additional observations from a re-analysis of the deposited data

How the results depend on the processing

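The count of members past the threshold and lower, 1 with limma, was 0 with edgeR's quasi-likelihood test, 2 with DESeq2, 0 with scaling by library size only, and 0 to 1 when 1 mouse was left out at a time; edgeR gave 4 members lower and 2 higher at an unadjusted p under 0.05. The count of members past the threshold and higher, 0 with limma, was 2 with DESeq2 and 0 without each mouse. Over all genes 18 passed with limma, 0 with edgeR's quasi-likelihood test (848 at an unadjusted p under 0.05), 250 with DESeq2, 10 with scaling by library size only, 76 with no filter, 39 with at least 10 counts in every library, and 0 to 13 when 1 mouse was left out; the cause was not tested. Tardbp had a log2 fold change of −1.65 and passed with DESeq2. Scaling by library size only moved the median log2 fold change of all genes by 0.19. The replicate numbers did not pair the mice (correlations of −0.07, −0.13 and −0.02 for equal numbers); with the replicate block 22 genes passed, 1 of them a member and lower, and Car4 had an adjusted p of 0.0059. Signs of named members that never passed turned under some settings. Slc12a5, positive with limma, was −0.85 with edgeR, −0.39 with the replicate block and −0.47 to 2.39 without 1 mouse. Slc20a2 was −0.69 with edgeR, −0.63 with DESeq2, −0.51 with quality weights, −0.22 with the replicate block and −1.21 to 3.80 without 1 mouse. Slc9a2 was 1.39 with edgeR, 1.45 with DESeq2, 0.93 with the replicate block and −1.79 to 2.32 without 1 mouse. Slc4a2 was −0.0054 with quality weights and −0.24 to 0.45 without 1 mouse, Slc30a1 −0.62 to 0.069 and Slc4a7 −0.0059 to 1.00. With 3 mice a group and members at 0 in single libraries, a difference in a scarce member was not detectable unless it exceeded that spread. Nothing in the sources says that mice of a group came from separate litters or days, and p values measure the spread between these mice.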
